A study of Mus musculus with 3 samples.

Results

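The cholesterol synthesis enzymes described here are 7 genes, Hmgcs1, Idi1, Fdft1, Sqle, Lss, Cyp51 and Dhcr7, measured in mouse gonads from male embryos of embryonic day 14.5. They were chosen by name, and every array probe whose transcript identifier led to one of these symbols in a mouse RefSeq gene table was used. This gave 12 probes for 6 of the 7 genes, out of 41174 probes and 16531 named genes on the array. No probe matched Idi1, which is therefore not analysed here. The embryos came from a mouse line that the labels call MCH and had 3 genotypes with 2 arrays each. The first was Cyp26b1-/-/Stra8-/- (double knockout), the second Cyp26b1-/-/Stra8+/+ (Cyp26b1 knockout) and the third Cyp26b1+/+/Stra8+/+ (wild type). CYP26B1 degrades retinoic acid, and STRA8 is a retinoic acid-induced factor that germ cells need to enter meiosis. The genotype labels name no Cre driver or promoter, and whole gonads were used. The series text calls the duplicates biological, and nothing says whether an array held one embryo or a pool.

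Cholesterol is made from acetyl-CoA by a chain of enzymes, first through mevalonate to squalene, then by ring closure to lanosterol, and last by the trimming of lanosterol to cholesterol. Most of the genes are known targets of SREBP2, a membrane-bound transcription factor that SCAP carries to the Golgi when sterols are low and that INSIG proteins hold back when sterols are high. In the fetal testis cholesterol is the substrate of the androgens made by Leydig cells, and intermediates late in the chain have been studied in germ cells as meiosis-activating sterols. Every dividing cell also runs the pathway for its membranes.

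The sterol regulatory element, the binding sequence of SREBP2, usually works beside CCAAT boxes bound by NF-Y and GC boxes bound by Sp1. Promoter windows in the RefSeq table of build GRCm38.p6, running from 250 bases before to 50 bases after a start, were found for 5 of the 7 genes. Windows of Hmgcs1, Cyp51, Dhcr7 and Lss are shown because by their brightest probes these genes differed most between Cyp26b1 knockout and wild type gonads, the first 3 in one direction and Lss in the other. Each line gives the 250 bases upstream of the start, 5′ to 3′ on the gene's strand, with capitals marking every match on either strand to TCACNCCAC (a sterol regulatory element core), CCAAT or GGGCGG (a GC box). The windows lie at chr13:119690101-119690350 on the plus strand for Hmgcs1, at chr5:4104698-4104947 on the minus strand for Cyp51, at chr7:143829964-143830213 on the plus strand for Dhcr7 and at chr10:76531355-76531604 on the plus strand for Lss.
Hmgcs1: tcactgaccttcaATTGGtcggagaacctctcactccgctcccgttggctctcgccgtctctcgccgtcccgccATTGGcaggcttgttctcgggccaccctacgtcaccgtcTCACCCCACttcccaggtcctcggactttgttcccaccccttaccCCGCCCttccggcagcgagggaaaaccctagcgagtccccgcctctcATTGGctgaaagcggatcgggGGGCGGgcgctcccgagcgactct
Cyp51: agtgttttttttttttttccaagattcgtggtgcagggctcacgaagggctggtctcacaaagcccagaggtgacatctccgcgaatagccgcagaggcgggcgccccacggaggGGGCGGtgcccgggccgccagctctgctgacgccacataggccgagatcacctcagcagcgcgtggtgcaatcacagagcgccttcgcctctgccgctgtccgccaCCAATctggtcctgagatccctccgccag
Dhcr7: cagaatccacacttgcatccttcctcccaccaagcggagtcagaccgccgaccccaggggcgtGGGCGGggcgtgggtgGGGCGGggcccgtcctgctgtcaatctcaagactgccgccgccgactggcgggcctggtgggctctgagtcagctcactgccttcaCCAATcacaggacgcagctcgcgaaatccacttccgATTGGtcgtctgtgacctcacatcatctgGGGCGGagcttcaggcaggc
Lss: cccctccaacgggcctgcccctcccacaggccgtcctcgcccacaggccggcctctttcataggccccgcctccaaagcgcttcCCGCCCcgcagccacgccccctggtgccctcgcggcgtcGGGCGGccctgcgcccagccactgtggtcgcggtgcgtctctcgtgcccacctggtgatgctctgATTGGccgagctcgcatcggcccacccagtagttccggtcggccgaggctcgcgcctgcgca
The Hmgcs1 window held 1 match to TCACNCCAC, and no match lay in the windows of Cyp51, Lss, Dhcr7 or Idi1. Among all 32851 promoter windows of 300 bases in the table, 1.24% held this motif, 37.4% held CCAAT and 35.7% held GGGCGG. Counting whole windows, Hmgcs1 had 4 CCAAT and 3 GGGCGG matches, Cyp51 had 1 of each, and Lss had 1 CCAAT and 2 GGGCGG matches. Dhcr7 has 3 windows in the table, and the one shown held the most matches, 2 CCAAT and 3 GGGCGG. Another held 1 GGGCGG and no CCAAT match, and the remaining one held neither. No match in the shown windows overlapped a match to another motif. These matches are a description of the letters and no measure of binding.

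Signals were read as log2 processed signal minus the 75th percentile of the same array, called log2 level below. Upper quartiles of the processed signal before this scaling lay between 997 and 1532, and 62.6% to 69.2% of spots stood well above background. Arrays of a genotype correlated with Pearson r of 0.992 to 0.995 over the features tested. The Stra8 probe stood at 5.98 and 6.14 on the arrays labelled double knockout, 7.19 and 7.04 on those labelled Cyp26b1 knockout, and 3.73 and 2.41 on those labelled wild type. The Cyp26b1 probe did not differ in any comparison (adjusted p from limma between 0.551 and 0.857). Whether these probes lie inside or outside the deleted sequence is unknown here, so they do not check the labels, and a genotype below is always the one on the label. Each genotype was on its own slide. The Cyp26b1 knockout arrays were scanned on a day of their own, so in their comparisons scan day, slide and genotype cannot be told apart, while double knockout and wild type shared a scan day. The p-values reflect the spread among the arrays alone.

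In Cyp26b1 knockout gonads the cholesterol synthesis enzymes moved in both directions relative to wild type. Read by the brightest probe of each gene, Hmgcs1, Sqle, Cyp51 and Dhcr7 were lower and Fdft1 and Lss were higher. On these probes the changes were moderate, between 1.27-fold for Sqle and 1.89-fold for Cyp51 on the lower side. On the higher side they were at most 1.51-fold, while the other Lss probe was 2.11-fold higher. In double knockout gonads the same probes stood near or slightly below wild type, and Dhcr7 was the one enzyme that passed the test. The direction for Cyp51 depended on the probe, the dimmer Hmgcs1 probe was not called lower, and the Sqle call was lost in several settings, as given below.

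**Figure D1:**
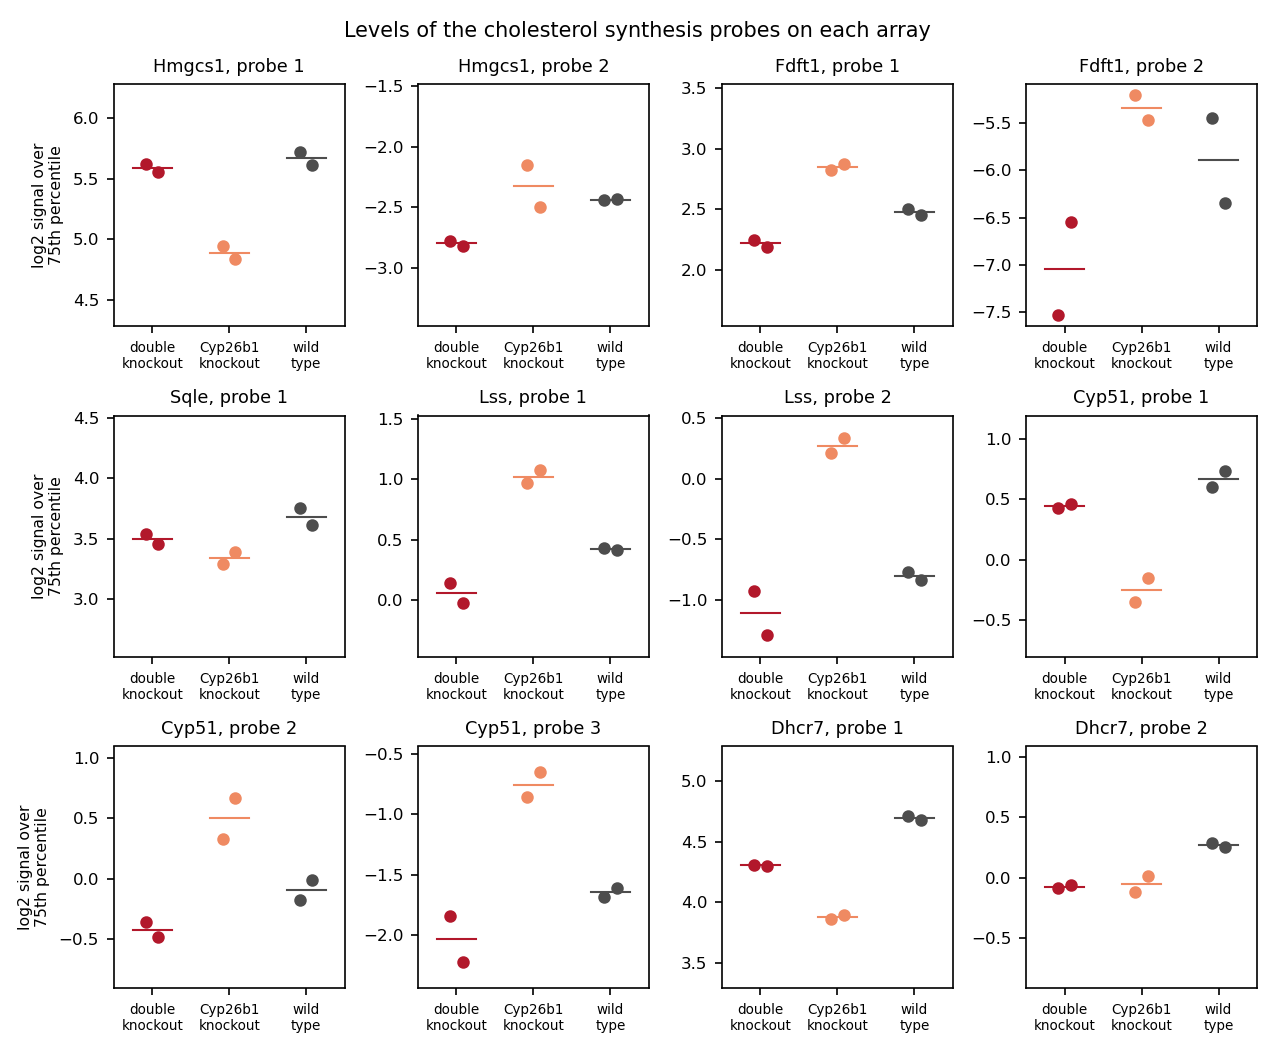
Log2 level (processed signal over the 75th percentile of the array, y axis) of the 12 probes on each of the 2 arrays of double knockout, Cyp26b1 knockout and wild type gonads, with lines at the genotype means; probe 1 is the brightest of its gene, and each y axis spans at least 2 log2 units. Both Cyp26b1 knockout arrays lie below both wild type arrays for Hmgcs1 probe 1 (4.94 and 4.84 against 5.72 and 5.61) and above them for Lss probe 1 (0.97 and 1.07 against 0.43 and 0.42).

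Hmgcs1 encodes the cytosolic HMG-CoA synthase, which joins acetyl-CoA and acetoacetyl-CoA at the entry of the mevalonate pathway. Its brightest probe read 5.62 and 5.55 in double knockout, 4.94 and 4.84 in Cyp26b1 knockout, and 5.72 and 5.61 in wild type gonads. Only the Cyp26b1 knockout arrays stood apart, below all 4 others. The log2 change was -0.78 ± 0.09 in Cyp26b1 knockout against wild type (SE, n = 2 each, limma adjusted p = 0.000548), which is 1.72-fold lower. Double knockout differed from wild type by -0.08 ± 0.09 (limma adjusted p = 0.592) and from Cyp26b1 knockout by 0.70 ± 0.09 (limma adjusted p = 0.00137). The second Hmgcs1 probe, which is far dimmer, did not show this: it read -2.78 and -2.82 in double knockout, -2.15 and -2.50 in Cyp26b1 knockout, and -2.44 and -2.43 in wild type gonads. On it double knockout differed from wild type by -0.36 ± 0.15 (limma adjusted p = 0.168). The Cyp26b1 knockout arrays lay on both sides of wild type, a log2 change of 0.11 ± 0.15 (limma adjusted p = 0.573), and double knockout was lower than Cyp26b1 knockout by a log2 change of -0.47 ± 0.15 (limma adjusted p = 0.0393).

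Fdft1 encodes squalene synthase, which joins farnesyl diphosphate units and commits the chain to sterols. Its brightest probe read 2.25 and 2.19 in double knockout, 2.82 and 2.87 in Cyp26b1 knockout, and 2.50 and 2.45 in wild type gonads. The 3 genotypes did not overlap, with Cyp26b1 knockout on top and double knockout at the bottom. Fdft1 was higher in Cyp26b1 knockout than in wild type by a log2 change of 0.37 ± 0.08 (limma adjusted p = 0.00624), and lower in double knockout than in Cyp26b1 knockout by -0.63 ± 0.08 (limma adjusted p = 0.00120). Between double knockout and wild type the change was -0.26 ± 0.08 and missed the threshold (limma adjusted p = 0.0743). A second Fdft1 probe was close to the background. It was well above background on 0 of 2 double knockout, 2 of 2 Cyp26b1 knockout and 1 of 2 wild type arrays, so only a bound can be given. By the bound used here it was at least 1.23-fold lower in double knockout than in Cyp26b1 knockout. No test is given, because the probe passed the background filter through the Cyp26b1 knockout arrays, where it is high. For this bound the dim group was set to the lowest signal that stood well above background on each of its arrays. A higher cut-off would give a smaller bound, so this value is not read as a result.

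Sqle encodes squalene epoxidase, which puts the oxygen on squalene and is a known control point of the pathway. Its single probe read 3.54 and 3.46 in double knockout, 3.29 and 3.39 in Cyp26b1 knockout, and 3.75 and 3.62 in wild type gonads. The groups did not overlap, but the gaps were small. Sqle was lower in Cyp26b1 knockout than in wild type by a log2 change of -0.35 ± 0.09, or 1.27-fold (limma adjusted p = 0.0140). That call was lost without Cyp26b1 knockout replicate 1 (-0.30, limma adjusted p = 0.0549), without wild type replicate 1 (-0.28, limma adjusted p = 0.0978) and in 4 other settings. Double knockout differed from wild type by -0.19 ± 0.09 (limma adjusted p = 0.206) and from Cyp26b1 knockout by 0.16 ± 0.09 (limma adjusted p = 0.182), and the last value turned to -0.14 with the authors' scaling, described below, and to -0.039 under cyclic loess.

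Lss encodes lanosterol synthase, which folds and closes the epoxide into the first sterol. Its brightest probe read 0.14 and -0.02 in double knockout, 0.97 and 1.07 in Cyp26b1 knockout, and 0.43 and 0.42 in wild type gonads. The other probe read -0.93 and -1.29 in double knockout, 0.21 and 0.34 in Cyp26b1 knockout, and -0.77 and -0.84 in wild type gonads. Both probes put the 3 genotypes in the same order without overlap, with Cyp26b1 knockout highest. The log2 change of Lss in Cyp26b1 knockout against wild type was 0.60 ± 0.10 by the brightest probe (1.51-fold, limma adjusted p = 0.00208) and 1.08 ± 0.14 by the other (2.11-fold, limma adjusted p = 0.000644). Double knockout was lower than Cyp26b1 knockout by -0.96 ± 0.10 (limma adjusted p = 0.000662) and -1.38 ± 0.14 (limma adjusted p = 0.000469) on these probes. Against wild type, double knockout gave -0.36 ± 0.10 (limma adjusted p = 0.0523) and -0.31 ± 0.14 (limma adjusted p = 0.183).

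Cyp51 encodes lanosterol 14α-demethylase, the enzyme of the first step after lanosterol, whose product is one of the meiosis-activating sterols. Its 3 probes went in opposite directions. The brightest read 0.43 and 0.46 in double knockout, -0.35 and -0.15 in Cyp26b1 knockout, and 0.60 and 0.73 in wild type gonads, so that Cyp26b1 knockout was lowest. The second read -0.36 and -0.48 in double knockout, 0.33 and 0.67 in Cyp26b1 knockout, and -0.18 and -0.01 in wild type gonads. The third read -1.84 and -2.22 in double knockout, -0.86 and -0.65 in Cyp26b1 knockout, and -1.68 and -1.61 in wild type gonads. On both of these Cyp26b1 knockout was highest, again without overlap.

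In numbers, Cyp51 in Cyp26b1 knockout against wild type gave a log2 change of -0.92 ± 0.10 on the brightest probe (limma adjusted p = 0.000485), 0.60 ± 0.13 on the second (limma adjusted p = 0.00752) and 0.89 ± 0.15 on the third (limma adjusted p = 0.00253). All 3 passed the test, so no direction is given for the gene. Double knockout against Cyp26b1 knockout gave 0.70 ± 0.10, -0.92 ± 0.13 and -1.28 ± 0.15 on the same probes, all past the threshold as well. Double knockout and wild type differed by -0.22, -0.32 and -0.39, none of them called. With normexp background correction the second probe became the brightest, and the Cyp51 value in Cyp26b1 knockout against wild type turned to 0.52. All 3 probes are assigned to the same RefSeq transcript, and their positions along it are unknown here.

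Dhcr7 encodes 7-dehydrocholesterol reductase, which makes cholesterol in the last step of one branch of the chain. Its brightest probe read 4.31 and 4.30 in double knockout, 3.86 and 3.89 in Cyp26b1 knockout, and 4.72 and 4.68 in wild type gonads. The genotypes were well separated, with wild type highest and double knockout between the others. Dhcr7 was 1.77-fold lower in Cyp26b1 knockout than in wild type, a log2 change of -0.82 ± 0.08 (limma adjusted p = 0.000258). It was 1.31-fold lower in double knockout than in wild type, -0.39 ± 0.08 (limma adjusted p = 0.0196), and 1.35-fold higher in double knockout than in Cyp26b1 knockout, 0.43 ± 0.08 (limma adjusted p = 0.00433). A dimmer Dhcr7 probe read -0.09 and -0.06 in double knockout, -0.12 and 0.02 in Cyp26b1 knockout, and 0.29 and 0.25 in wild type gonads. There both knockout genotypes lay below wild type and overlapped each other. The dimmer probe gave -0.32 ± 0.09 in Cyp26b1 knockout (limma adjusted p = 0.0211) and -0.35 ± 0.09 in double knockout (limma adjusted p = 0.0539) against wild type, and -0.02 ± 0.09 between the knockouts (limma adjusted p = 0.865).

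**Figure D2:**
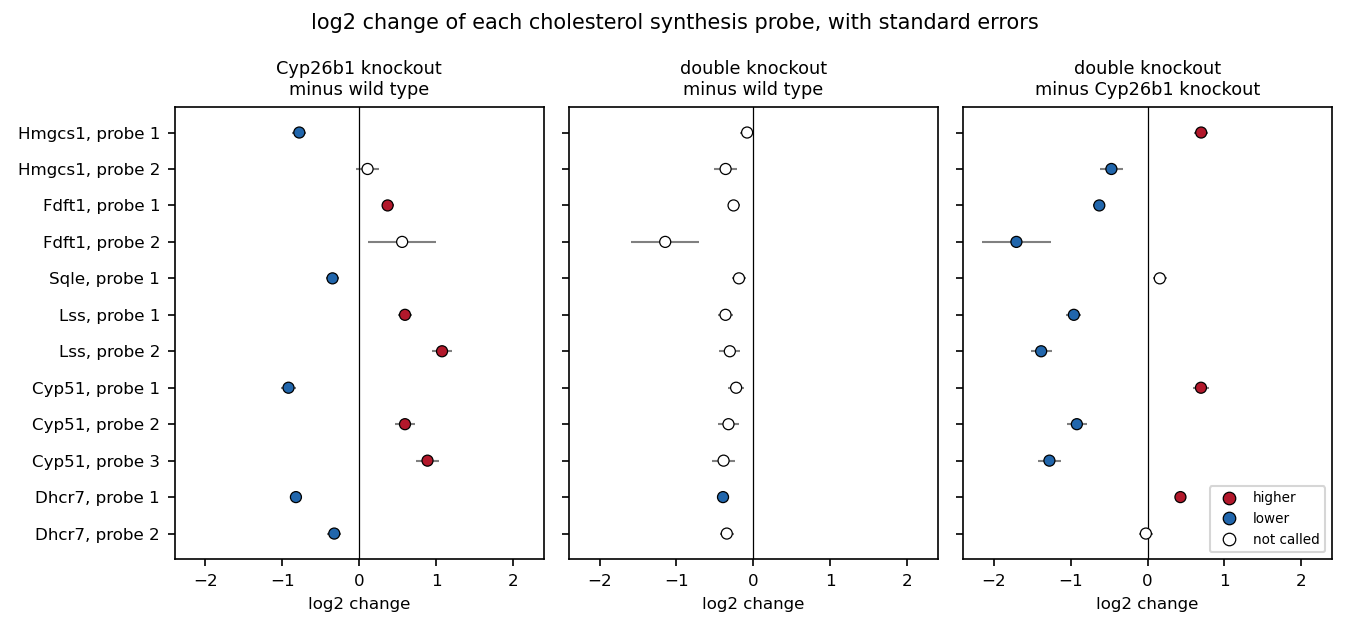
Log2 change (x axis, first genotype minus second) of the 12 probes in the 3 comparisons, with standard errors of the limma fit over all probes; red and blue mark calls at an adjusted p below 0.05. Cyp51 has called probes on both sides of 0 in the left panel, from -0.92 to 0.89, and in the middle panel Dhcr7 probe 1 alone is called, at -0.39.

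Counted over genes in Cyp26b1 knockout against wild type, 2 of the 6 measured enzymes were called higher and 4 lower. The 4 lower include Cyp51 by its brightest probe, whose other probes were both called higher. Over all 22267 features tested, which are genes by their brightest probe plus probes without a gene name, 21.6% were called higher and 29.6% lower. Calls were thus common across the whole array, and a call as such does not set these enzymes apart. Their median log2 change was -0.56, against -0.09 over all features. Counted over probes, 5 of 12 were called higher, 5 lower and 2 not, against 25.2% higher and 28.2% lower among 27865 probes. The median then was 0.24, against -0.04 over all probes, so the sign of the median turned with the choice of probes. One of the 12, the second Fdft1 probe, entered the test through the Cyp26b1 knockout arrays alone. With normexp background correction of the median signals 3 of the 6 enzymes were called higher (Fdft1, Cyp51 and Lss) and 0 lower, and Hmgcs1 (-0.64, limma adjusted p = 0.191) and Dhcr7 (-0.57, limma adjusted p = 0.0788) were not. That correction called 1685 of all 22267 features higher and 2050 lower. With the mean of all probes of a gene Fdft1 was not called (0.46, limma adjusted p = 0.100).

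For double knockout against wild type, 0 of the 6 enzymes were called higher and 1 lower, against 5.30% and 6.56% of all features. By probe, 0 of 12 were called higher and 1 lower, against 5.09% and 6.46%. All 12 probes had negative log2 changes, from -0.39 to -0.08 for the 11 that were above background on every array. The median over the 12 was -0.33, where all probes had -0.02. The Dhcr7 call was lost without any one of the 4 arrays compared, with limma adjusted p-values of 0.0822 without double knockout replicate 1, 0.0926 without double knockout replicate 2, 0.114 without wild type replicate 1 and 0.108 without wild type replicate 2. In a fit to these 4 arrays alone, which share a scan day, Dhcr7 was called (limma adjusted p = 0.0189). The scaling of the authors' own value table differs from the one used here by -0.20 log2 in this comparison, by 0.10 in Cyp26b1 knockout against wild type and by -0.30 in double knockout against Cyp26b1 knockout. Under it 5 of the 6 enzymes were called lower in double knockout than in wild type, all but Hmgcs1. Over all 22267 features it called 688 higher and 4457 lower. The share of called features that were higher fell to 13.4%, against 44.7% here.

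Double knockout and Cyp26b1 knockout share the Cyp26b1 deletion and differ in Stra8. Between them 3 of the 6 enzymes were called higher in double knockout (Hmgcs1, Cyp51 by its brightest probe, and Dhcr7), 2 lower (Fdft1 and Lss) and Sqle not, against 25.2% and 18.0% of all features. By probe 3 of 12 were called higher and 7 lower, against 23.7% and 22.3%. Of these 7, 1 is the second Fdft1 probe, which entered the test through the Cyp26b1 knockout arrays alone. Its call is therefore not read as a result. The Dhcr7 change in this comparison was 0.12 under the scaling of the authors' table (limma adjusted p = 0.223), 0.19 under cyclic loess (limma adjusted p = 0.0617) and -0.02 on the dimmer probe. With the mean of all probes of a gene, 0 enzymes were called higher and 3 lower, and neither Hmgcs1 (0.11, limma adjusted p = 0.379) nor Dhcr7 (0.20, limma adjusted p = 0.0683) was called. Under the authors' scaling 22.4% of called features were higher, against 58.3% here, and in Cyp26b1 knockout against wild type the share was 52.1%, against 42.2%. The 3 comparisons share arrays, so their values for one gene are not independent of each other.

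Disagreement between probes was also seen across the array. Across 4506 genes with more than 1 probe, 5594 other probes could be set beside the brightest of their gene. In Cyp26b1 knockout against wild type the other probe's log2 change exceeded the brightest probe's by a median of 0.29, and 38.7% exceeded it by more than 0.5. Called changes of opposite sign made up 8.88% of these probes in Cyp26b1 knockout against wild type and 9.19% in double knockout against Cyp26b1 knockout, but 0.107% in double knockout against wild type. Among the enzymes, both other Cyp51 probes had calls opposite to the brightest in Cyp26b1 knockout against wild type and between the knockouts. The dimmer Hmgcs1 probe had an opposite call between the knockouts. In Hmgcs1, Fdft1, Lss, Cyp51 and Dhcr7 every dimmer probe also had a higher log2 change than the brightest in Cyp26b1 knockout against wild type. The 2 comparisons with the larger shares of opposite calls are those that hold the separately scanned Cyp26b1 knockout arrays. In double knockout against wild type 9.69% of the other probes lay lower than the brightest by more than 0.5, and 3.86% higher. An opposite call needs calls on both probes, and in that comparison 5.09% of all probes were called higher and 6.46% lower. In Cyp26b1 knockout against wild type these were 25.2% and 28.2%, so the shares of opposite calls are not directly comparable. The part of these differences between probes in the results was not tested.

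**Figure D3:**
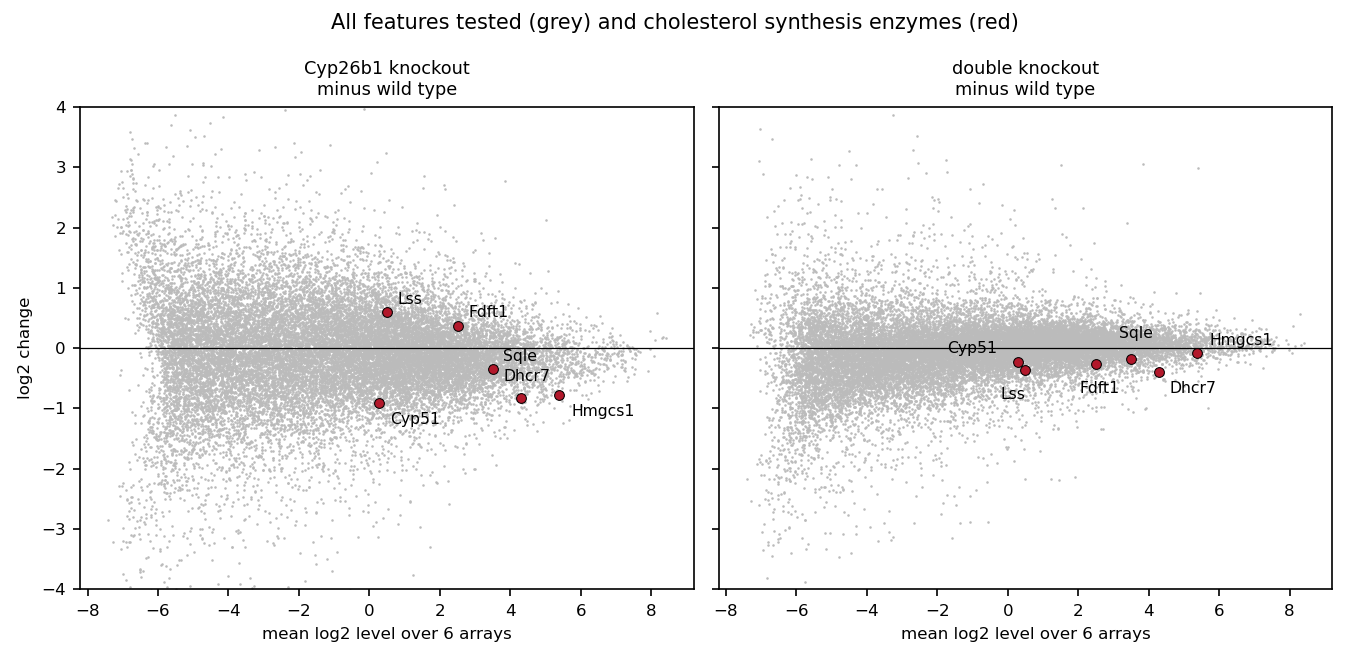
Mean log2 level over the 6 arrays (x axis) and log2 change (y axis) of 22267 features, with the 6 measured enzymes in red, for Cyp26b1 knockout minus wild type (left) and double knockout minus wild type (right); 44 and 16 features lie beyond the y axis limit of 4. Dhcr7 and Hmgcs1 lie at -0.82 and -0.78 on the left, below 0, and nearer 0 on the right, at -0.39 and -0.08.

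With the features ranked by mean level into 10 bins of equal size, bin 10 being the brightest, Hmgcs1, Sqle and Dhcr7 fell into bin 10, whose median change in Cyp26b1 knockout against wild type was -0.15. Fdft1 fell into bin 9, also with a median of -0.15, and Cyp51 and Lss into bin 7, with a median of -0.07. The log2 changes of Hmgcs1, Sqle, Dhcr7 and, by its brightest probe, Cyp51 were below the medians of their bins. Those of Fdft1 (0.37) and Lss (0.60) were above. Bin 10 spans log2 levels from 3.07 to 8.41, so its features are not equally bright.

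Other enzymes of the chain were also called in both directions. All 13 further mevalonate and sterol enzymes were measured. In Cyp26b1 knockout against wild type 3 of them were called higher and 6 lower, beside 21.6% and 29.6% of all features. The median of the 13 was -0.22. The sharpest fall was in Hsd17b7, the 3-ketosteroid reductase of the sterol demethylation steps, which read 1.03 and 1.15 in double knockout, -0.12 and -0.13 in Cyp26b1 knockout, and 1.69 and 1.77 in wild type gonads. Its log2 change in Cyp26b1 knockout against wild type was -1.86 ± 0.09 (3.62-fold lower, limma adjusted p = 5.5e-05), and a second probe gave -0.56. Ebp, the sterol isomerase that shifts the ring double bond, fell by 1.49 ± 0.23, and Tm7sf2, a sterol 14-reductase, fell by 1.11 ± 0.13. Msmo1, the 4-methylsterol oxidase, fell by 0.65, Nsdhl, the decarboxylating dehydrogenase, by 0.61 and Sc5d, the sterol C5-desaturase, by 0.60, with limma adjusted p-values from 0.000901 to 0.00532. Another Nsdhl probe was called in the opposite direction, at 0.34.

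Higher in Cyp26b1 knockout than in wild type were Acat2, the cytosolic thiolase that makes acetoacetyl-CoA (1.33 ± 0.16, limma adjusted p = 0.000645), Mvk, mevalonate kinase (0.68 ± 0.12, limma adjusted p = 0.00344), and Lbr, a nuclear membrane protein that is also a sterol 14-reductase (0.68 ± 0.15, limma adjusted p = 0.00674). The remaining 4 genes had small changes in this comparison that were not called. These were -0.20 for Pmvk, 0.06 for Mvd, 0.07 for Fdps, and -0.22 for Ggps1, which act from mevalonate phosphate to farnesyl and geranylgeranyl diphosphate. A second Ggps1 probe was called higher, at 0.49 (limma adjusted p = 0.0250).

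Hsd17b7 alone of the 13 was called in double knockout against wild type, lower by a log2 change of -0.64 ± 0.09 (limma adjusted p = 0.00600), and 0 were called without wild type replicate 2. Of all features, 5.30% were called higher and 6.56% lower in this comparison. Under the authors' scaling 7 of the 13 were called in it, all lower, beside 4457 of all 22267 features lower and 688 higher. With the array number as a block 3 of the 13 were called, adding Fdps (-0.30, limma adjusted p = 0.0437) and Lbr (0.37, limma adjusted p = 0.0351). Against Cyp26b1 knockout, 25.2% of all features were called higher and 18.0% lower in double knockout. Over all 22267 features, the authors' scaling called 2149 higher and 7437 lower there, and normexp 1650 and 1125. Of the 13, 7 were higher and 3 lower there, or 4 higher and 6 lower under the authors' scaling and 2 higher and 1 lower with normexp. The higher ones were Hsd17b7 (1.22), Ebp (1.09), Tm7sf2 (0.71), Sc5d (0.58), Nsdhl (0.50), Msmo1 (0.44) and Ggps1 (0.40), and the lower ones were Acat2 (-1.14), Mvk (-0.97) and Fdps (-0.37). The Fdps call was lost without Cyp26b1 knockout replicate 1 (-0.27), double knockout replicate 2 (-0.23) or either wild type array (-0.37). The Ggps1 call was lost without Cyp26b1 knockout replicate 1 (0.31) or double knockout replicate 2 (0.37), and the Nsdhl call without double knockout replicate 1 (0.46). With the mean of all probes Ggps1 (0.04) and Nsdhl (0.10) were not called, and Msmo1 was not called under the authors' scaling (0.14) or cyclic loess. On other probes in this comparison Hsd17b7 was at 0.09 (limma adjusted p = 0.499), Ggps1 at -0.32 (limma adjusted p = 0.112) and Nsdhl at -0.48, called lower.

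Laid out in pathway order, with the 6 measured enzymes and the 13 others together, a division at lanosterol was seen. This division was chosen after the values were seen and is given as a description. After lanosterol, 8 of 9 genes were called lower and 1, Lbr, higher in Cyp26b1 knockout against wild type, with a median log2 change of -0.82. Of all features, 29.6% were called lower and 21.6% higher. With normexp the calls after lanosterol were 4 lower and 2 higher, beside 2050 of all 22267 features lower and 1685 higher. Up to lanosterol, 4 of 10 were called higher and 2 lower, with a median of 0.06, and the lower ones were Hmgcs1 and Sqle. These 10 include Ggps1, not called here, which makes geranylgeranyl diphosphate and is not a step to lanosterol. Between double knockout and wild type the medians were -0.22 after and -0.21 up to lanosterol, and 2 and 0 genes were called lower. Under the authors' scaling these counts were 5 and 7, beside 4457 of all 22267 features called lower. By the scaling used here 1460 features, or 6.56%, were called lower in this comparison. Between the knockouts, 25.2% of all features were called higher in double knockout by the scaling used here. The authors' scaling called 2149 features higher there and normexp 1650. Of the 9 genes after lanosterol, 8 were called higher in double knockout than in Cyp26b1 knockout, or 5 under the authors' scaling, 5 with the mean of probes and 2 with normexp, each with 1 lower. Cyp51 and Nsdhl stand in these counts by their brightest probes, though other probes of theirs were called the opposite way.

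**Figure D4:**
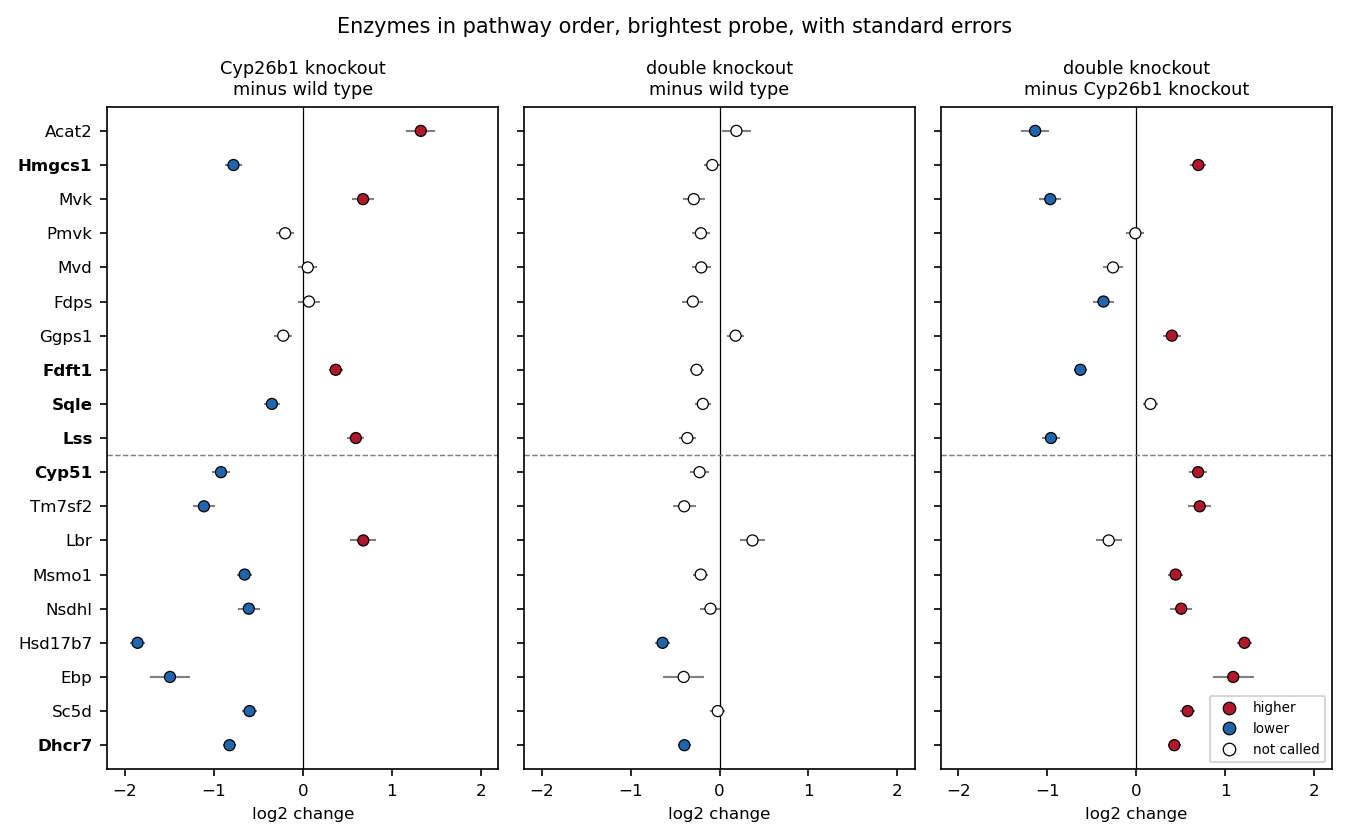
Log2 change (x axis, first genotype minus second) with standard errors of 19 enzymes by their brightest probes, in pathway order from top to bottom. Ggps1, which is not a step to lanosterol, is drawn after Fdps. The measured enzymes of the chosen set are in bold, and a dashed line follows lanosterol synthase. Red and blue mark calls at an adjusted p below 0.05. Below the dashed line, 8 of 9 genes lie to the left in Cyp26b1 knockout minus wild type.

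The genes that sense sterols and control SREBP were read next. Srebf2, which encodes SREBP2, had log2 changes of 0.20 ± 0.11 in Cyp26b1 knockout (limma adjusted p = 0.153) and 0.14 ± 0.11 in double knockout (limma adjusted p = 0.430) against wild type. Srebf1 had -0.04 and 0.08, and Insig1, itself a target of SREBP, had 0.01 and -0.21, in the same order and none of them called. Of 12 listed genes, 1 was called higher and 3 lower in Cyp26b1 knockout against wild type, beside 21.6% and 29.6% of all features. Scap, the sterol-regulated escort of SREBP, fell by 0.31 ± 0.09 (limma adjusted p = 0.0190), Rnf139, an ER ubiquitin ligase, fell by 0.58 ± 0.09 (limma adjusted p = 0.00214), and Erlin2, a protein of ER lipid rafts, was called lower on its brightest probe, at -0.26 ± 0.09 (limma adjusted p = 0.0387). Other Erlin2 probes gave 0.20, not called, and 1.06, called higher (limma adjusted p = 0.000767). Mbtps1, the Golgi protease that cuts SREBP first, was higher by 0.33 ± 0.10 on its brightest probe (limma adjusted p = 0.0276), by 2.03 on another (limma adjusted p = 4.33e-05), and not called at 0.31 on the remaining one. The list had 3 genes called higher and 1 lower under the authors' scaling. With normexp 0 were called, beside 1685 of all 22267 features higher and 2050 lower. This count of 4 calls was 1 without Cyp26b1 knockout replicate 1 or wild type replicate 2, and 2 without Cyp26b1 knockout replicate 2 or wild type replicate 1.

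Among 14 measured genes of sterol uptake, transport, storage and efflux, 2 were called higher and 7 lower in Cyp26b1 knockout against wild type. The shares over all features in this comparison were 21.6% higher and 29.6% lower. Abcg1, a sterol exporter, fell by 0.80, Lipa, the lysosomal acid lipase that frees cholesterol from its esters, by 0.61 and Vldlr, a lipoprotein receptor, by 0.51, with limma adjusted p-values from 0.000475 to 0.00283. Stard4, a cytosolic sterol carrier, fell by 1.42 ± 0.09 on its brightest probe (limma adjusted p = 9.4e-05), while 2 other probes gave 0.43 and 0.32, the first of them called higher. In the fatty acid synthesis list of 12 genes, 2 were called higher and 3 lower. These included Scd1, a stearoyl-CoA desaturase, at -0.63 ± 0.12, Scd2, a related desaturase, at -0.48 ± 0.10, Me1, malic enzyme, at -0.46 ± 0.09 and Fads1, a fatty acid desaturase, at 1.03 ± 0.12.

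The calls in these lists in double knockout against wild type were 2 higher and 0 lower for sterol control, 0 and 2 for uptake and transport, and 0 and 1 for fatty acid synthesis. Over all features, 5.30% were called higher and 6.56% lower in this comparison. Under the authors' scaling the list calls were 0 and 1, 0 and 5, and 0 and 3, beside 688 features higher and 4457 lower of 22267. Without any 1 of the 4 arrays compared each of these counts was 0 or 1, the count for sterol control was also 1 without either Cyp26b1 knockout array, and with the array number as a block 2 fatty acid genes were called. Against Cyp26b1 knockout they were 4 higher and 1 lower, 6 and 1, and 3 and 1 in the same lists, or 2, 4 and 2 calls in all without double knockout replicate 2. Without Cyp26b1 knockout replicate 1, 3 sterol control genes were called in this comparison. Under the authors' scaling the calls were 2 higher and 5 lower, 4 and 5, and 0 and 3. Over all 22267 features that scaling called 2149 higher and 7437 lower. By the scaling used here, 25.2% of all features were called higher and 18.0% lower in double knockout against Cyp26b1 knockout.

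Of 8 tested genes of steroid hormone synthesis, which uses cholesterol, 7 were called lower in Cyp26b1 knockout than in wild type and 0 higher, with a median log2 change of -0.90. Of all features, 29.6% were called lower and 21.6% higher in this comparison. With normexp 4 of the 8 genes were called lower and 1 higher, beside 2050 of all 22267 features lower and 1685 higher. Star, which brings cholesterol into mitochondria, read 2.68 and 2.55 in double knockout, 1.78 and 2.26 in Cyp26b1 knockout, and 3.62 and 3.56 in wild type gonads. Its log2 change was -1.57 ± 0.15 in Cyp26b1 knockout (limma adjusted p = 0.000282) and -0.97 ± 0.15 in double knockout (limma adjusted p = 0.00900) against wild type. A second Star probe gave -1.06 ± 0.18 in Cyp26b1 knockout (limma adjusted p = 0.00212). In double knockout that probe gave -0.67 ± 0.18 and was not called (limma adjusted p = 0.0503). Hsd17b1, a 17β-hydroxysteroid dehydrogenase, was lower in both, by -2.85 ± 0.22 in Cyp26b1 knockout (limma adjusted p = 0.000155) and -2.89 ± 0.22 in double knockout (limma adjusted p = 0.000817). The electron carriers of mitochondrial steroid synthesis, Fdx1 and Fdxr, fell by 0.99 ± 0.09 and 1.06 ± 0.10 in Cyp26b1 knockout, with limma adjusted p-values of 0.000253 and 0.000262. Of the same 8 genes, 4 were called lower and 0 higher in double knockout against wild type, or 2 without wild type replicate 1 and 2 without wild type replicate 2. Over all features, 6.56% were called lower and 5.30% higher in double knockout against wild type. Cyp11a1, the side-chain cleavage enzyme, was not called, with -0.12 ± 0.19 in Cyp26b1 knockout and -0.09 ± 0.19 in double knockout against wild type.

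Markers of gonadal cell types were read as well. For 5 measured Leydig cell markers of 6 listed, the summed linear level ran from 83.6 to 99.5 in double knockout, 59.9 to 80.5 in Cyp26b1 knockout and 97.2 to 113 in wild type gonads, and 3 of the 5 were called lower in Cyp26b1 knockout against wild type. Cyp11a1, Cyp17a1, Hsd3b1 and Star are also in the steroid hormone list above, so these readings share genes. The 3 called lower are all among those shared. Nr5a1, the remaining measured marker, was not called in this comparison (0.46 ± 0.18, limma adjusted p = 0.0672). Insl3 had no matched probe. The sum for 6 germ cell markers ran from 71.0 to 81.9 in double knockout, 56.0 to 70.8 in Cyp26b1 knockout and 84.7 to 86.1 in wild type gonads, and 1 was called higher and 3 lower in Cyp26b1 knockout against wild type. The 7 Sertoli cell markers summed to between 54.4 and 59.2 in double knockout, 49.1 and 53.7 in Cyp26b1 knockout and 49.5 and 55.4 in wild type gonads, with 3 called higher and 2 lower in Cyp26b1 knockout against wild type. In Cyp26b1 knockout against wild type the calls were 2 higher and 2 lower among 5 endothelial markers, 1 and 2 among 6 of blood and macrophages, 2 and 2 among 5 of mesonephros and duct, and 2 and 1 among 3 tested ovarian somatic markers. Over all features, 21.6% were called higher and 29.6% lower in this comparison. Of the adrenal markers, Cyp21a1 and Cyp11b2 were never well above background. The part of these markers in the results was not tested. In whole gonads, fewer cells of a type and less RNA per cell cannot be told apart.

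Read by their brightest probes, the enzymes fell into 2 groups over the 6 arrays, given here as a description that rests on 3 genotypes. Hmgcs1, Sqle, Cyp51 and Dhcr7 by their brightest probes correlated with each other with Pearson r from 0.84 to 0.95, and Fdft1 with Lss at 0.996. Across the groups every r was negative, from -0.87 to -0.47. The grouping depends on the probe. On its other probes Cyp51 had the order of Fdft1 and Lss, with Cyp26b1 knockout highest and double knockout lowest. The dimmer Hmgcs1 probe did not show the pattern of the brightest. The mean log2 level of the 6 enzymes was most like Pdyn, which encodes prodynorphin, Zg16, Nrap, Upk2 and Dnmt3l among 2442 features whose genotype means spanned at least 1 log2 unit, with Pearson r from 0.994 to 0.998 over the 6 arrays. This mean followed Sqle (Pearson r of 0.94), Dhcr7 (0.93), Cyp51 (0.80) and Hmgcs1 (0.71), while Fdft1 (-0.27) and Lss (-0.30) ran against it, so it does not describe all 6. Pdyn, the nearest, read 2.54 and 2.09 in double knockout, 1.83 and 2.16 in Cyp26b1 knockout, and 3.75 and 3.55 in wild type gonads, so its knockout genotypes overlapped and lay below wild type. Dnmt3l, a partner of the de novo DNA methyltransferases, read -1.10 and -2.16 in double knockout, -3.88 and -2.94 in Cyp26b1 knockout, and 3.55 and 3.69 in wild type gonads. Upk2 was well above background on the wild type arrays alone.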

How the data were processed

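Total RNA of 6 gonad samples was labelled with Cy3 and hybridised to one-colour Agilent arrays, per the labels' protocols. The authors deposited one scanner file per array with spot intensity on a linear scale, for which the submitters' processing notes name Agilent Feature Extraction 9.5 and the file headers version 9.5.3.1. Background subtraction and spatial detrending had been applied to the processed intensity, per the file headers. A value table that the authors deposited besides has one column per genotype, a linear ratio by its values, whose log2 differences matched those of the scanner signals (Pearson r of at least 0.99999) apart from a constant shift. Its centring and scaling are not given in the sources used here.

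Here, log2 processed signals minus each array's 75th percentile were used. Control and outlier spots were left out and 25 probes dropped. Probes were named by transcript accession through the RefSeq table of GRCm38.p6: 23374 matched 1 symbol, 0 several and 17800 none. A gene was represented by its brightest probe, and every probe was also fitted separately. A feature was kept if both arrays of some genotype had it well above background. All 12 member probes passed, 11 of them above background on all 6 arrays and 1 through Cyp26b1 knockout alone. Limma 3.58.1 in R 4.3.3 (lmFit, eBayes with trend) was fitted to all 6 arrays (3 residual degrees of freedom, 4.35 prior ones), two-sided, Benjamini-Hochberg adjusted over all features, threshold 0.05. The number of arrays limits the precision, and an exact permutation test of 2 arrays against 2 cannot go below p = 0.333. The fit was tested on simulated data.

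Array numbers come from the scanner files' names. Differences between array 1 and array 2 correlated between genotypes (Pearson r over 22267 features 0.113 between the knockouts, 0.105 for Cyp26b1 knockout with wild type, 0.196 for double knockout with wild type), so the numbers were treated as pairing the arrays and a block was tried. The members, the gene lists and the tests were chosen with earlier results of these data known. By the naming rule all members, all 13 other enzymes, up to 4 genes of each further list with the smallest adjusted p in Cyp26b1 knockout against wild type, and the 5 features most like the members' mean are named. Srebf1, Srebf2, Insig1 and Cyp11a1 were named outside this rule, after their values were seen. Some genes of the lists are not reported here and stand in no list count. The files hold no mean signal, so normexp used the median signal in its place. Other scalings, background corrections, filters, probe rules and the leaving out of each array were alternatives.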

Additional observations from a re-analysis of the deposited data

How the results depend on the processing

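The tests were repeated under 19 alternatives, of which cyclic loess was chosen after the data were seen. Over the 6 measured enzymes, 102 of 114 values in Cyp26b1 knockout against wild type kept their direction and side of the threshold, as did 103 in double knockout against wild type and 103 in double knockout against Cyp26b1 knockout. In Cyp26b1 knockout against wild type, normexp called 1685 features higher, 2050 lower and 3 enzymes. Cyp51 there was 0.52 with normexp, 0.51 with normexp without marked spots and 0.19 with the mean of probes. In both normexp settings another Cyp51 probe became the brightest. Of the other enzymes, Mvd was -0.0036 with normexp without marked spots and -0.071 to 0.18 with single arrays left out, and Ggps1 was 0.14 with the mean of probes. Leaving out arrays put Fdps at -0.028 to 0.17. In double knockout against wild type, the authors' scaling called 688 features higher, 4457 lower and 5 enzymes, with Acat2 at -0.011 and Ggps1 at -0.020. Normexp called 324, 218 and 0, with Acat2 at -0.31 and Sc5d at 0.074. No filter on dim features gave 757 higher and 842 lower, eBayes without trend 784 higher and 0 enzymes, and cyclic loess 2 enzymes. Single arrays left out gave 302 to 1263 features higher, 405 to 1530 lower and 0 to 1 enzymes, with Sc5d at -0.068 to 0.029. In double knockout against Cyp26b1 knockout, the authors' scaling gave 2149 higher and 7437 lower, with Sqle at -0.14. Normexp gave 1650, 1125 and 3 enzymes, with Cyp51 at -0.83 and, without marked spots, -0.84. No filter gave 10592 higher, every probe as a feature 6226 lower, and the mean of probes 3 enzymes with Cyp51 at -0.50. Cyclic loess put Sqle at -0.039. Pmvk was 0.038 with median scaling and -0.081 to 0.060 with single arrays left out. The authors' scaling shifts all changes by a constant, and leaving out an array removes degrees of freedom. The cause was not tested for the other settings. With the array number as a replicate block, 6 enzymes were called in Cyp26b1 knockout against wild type, 1 in double knockout against wild type and 5 between the knockouts. The block changed no call of the 6 enzymes, and of the 13 others it added Lbr (-0.31) between the knockouts besides the 2 given above. Dim probes were limited by background: the second Fdft1 probe could only be bounded. Slide and scan day as blocks were not run, because each genotype had its own slide and the Cyp26b1 knockout arrays their own scan day.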

Other observations

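The branch that uses farnesyl and geranylgeranyl diphosphate for purposes other than sterols was measured as well. Of 10 measured genes of this branch, 4 were called higher and 1 lower in Cyp26b1 knockout against wild type, with a median log2 change of 0.13. The shares over all features were 21.6% higher and 29.6% lower. Nus1, a subunit of the dolichol-making cis-prenyltransferase, was higher by 0.52 ± 0.08 (limma adjusted p = 0.00208), and Coq2, which attaches the isoprenoid tail of ubiquinone, by 0.63 ± 0.18 (limma adjusted p = 0.0203). Pdss1, which builds that tail, was higher by 0.39 ± 0.10 (limma adjusted p = 0.0156), and Rabggtb, a subunit of the enzyme that prenylates Rab proteins, by 0.38 ± 0.09 (limma adjusted p = 0.0112). Dimmer probes of Pdss1 and Rabggtb gave 0.97 and 0.82 in the same comparison, both called. With normexp 3 genes of the branch were called higher and 0 lower, beside 1685 of all 22267 features higher and 2050 lower. Their log2 changes in double knockout against wild type were 0.20 for Nus1, -0.07 for Coq2, 0.43 for Pdss1 and 0.00 for Rabggtb, and Pdss1 was the one that was called (limma adjusted p = 0.0356), a call that was lost without double knockout replicate 2 or either wild type array. The count of 5 calls in Cyp26b1 knockout against wild type was 3 without Cyp26b1 knockout replicate 1 or wild type replicate 1, 2 without Cyp26b1 knockout replicate 2 and 1 without wild type replicate 2.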
